A study of Mus musculus with 10 samples.

Results

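Titin, nebulin, the myomesins and the myosin-binding proteins hold the filaments of the sarcomere, the contractile unit of striated muscle, in register. The 9 genes described here are Ttn and Neb, which encode the giant proteins titin and nebulin, Myom1, Myom2 and Myom3, which encode the myomesins, and Mybpc1, Mybpc2, Mybpc3 and Mybph, which encode the myosin-binding proteins C and H. They were chosen by name, as 9 of the 54232 genes in the deposited table, and were compared between muscle with and without desmin. Of the 9 genes, 8 had values other than 0 and all 8 were tested, among 14289 tested genes. Mybpc3 was listed at 0 in all 10 mice.

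RNA was sequenced from the gastrocnemius, a calf muscle, of 5 homozygous desmin knock-out mice (Des -/-) and 5 wild-type littermates (Des wt/wt) at 3 months of age. The labels name only the gastrocnemius, whereas the text of the study gives it together with the neighbouring plantaris, so the muscle may have included both. The labels give the strain B6J.129Sv-Destm1Cba/Cscl for all 10 mice. Its targeted Des allele is carried in the germ line, on both chromosomes of the knock-out mice and on neither of the wild-type mice by their labels. The study's methods speak of pooled RNA, but the table holds 10 separate columns, named for single mice, so every mouse counted as a replicate. The deposited unit is the regularized logarithm (rlog), a log2 value corrected for library size that pulls weakly expressed genes towards their own mean. Rlog differences can therefore be smaller than log2 fold changes of counts, and the depth of each library is unknown.

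Titin runs from the Z-disc, the border of the sarcomere, to its middle, the M-band, and acts as a molecular spring. Nebulin lies along the thin actin filament. Myomesins link neighbouring thick myosin filaments at the M-band, where Myom1 is found in all striated muscle, Myom2 (M-protein) is typical of fast fibers and Myom3 of slow and intermediate fibers. Myosin-binding protein C sits on the thick filament and is made in a slow (Mybpc1), a fast (Mybpc2) and a cardiac (Mybpc3) form, and Mybph encodes the shorter protein H. Desmin filaments surround the Z-disc and tie neighbouring myofibrils to each other.

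Some libraries stood apart. Des itself ranged from 11.76 to 11.89 in the knock-out and from 16.10 to 17.74 in the wild-type mice, so each library had the Des level of its label. Wild-type mouse 3 had the lowest mean correlation with its own genotype (0.982, the other mice between 0.989 and 0.997). Its values fell with exon length, by 0.125 on the log2 scale per doubling, and those of wild-type mouse 4 fell by 0.0591, whereas the slopes of the other 8 mice lay between -0.0038 and 0.050. All 10 markers of skeletal muscle were tested, with a median log2 difference of -0.45 and only Myh4 passing the test. Of 10 cardiac markers, 3 passed the expression limit. In the wild-type group, 7 of the 8 genes had a larger SD than in the knock-out group (median ratio of the SDs 2.09), as did 82.9% of all tested genes (median ratio 1.90).

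Of the 8 tested genes, 3 passed the test, 2 of them higher and 1 lower in desmin knock-out muscle. Myom3 rose 2.71-fold on the rlog scale and Mybpc1 1.47-fold, while Mybpc2 fell to a level 2.06-fold lower than in wild-type muscle. The call of Mybpc1 was the least firm and was lost in 12 of 20 alternatives, among them leaving out any one of the knock-out mice. Ttn, Neb, Myom1, Myom2 and Mybph did not pass. At an adjusted p under 0.05 (limma), 7.70% of all tested genes were called higher and 5.99% lower, 13.7% in all. Complete separation of the 5 knock-out from the 5 wild-type values was seen for Myom3, above, and for Mybpc2, below, compared with 7.45% and 6.97% (14.4% in either direction) of all tested genes. The median log2 difference of the 8 genes was -0.0089, and that of all tested genes was -0.0029. In whole muscle, fewer fibers of a type and less RNA per fiber cannot be told apart.

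**Figure D1:**
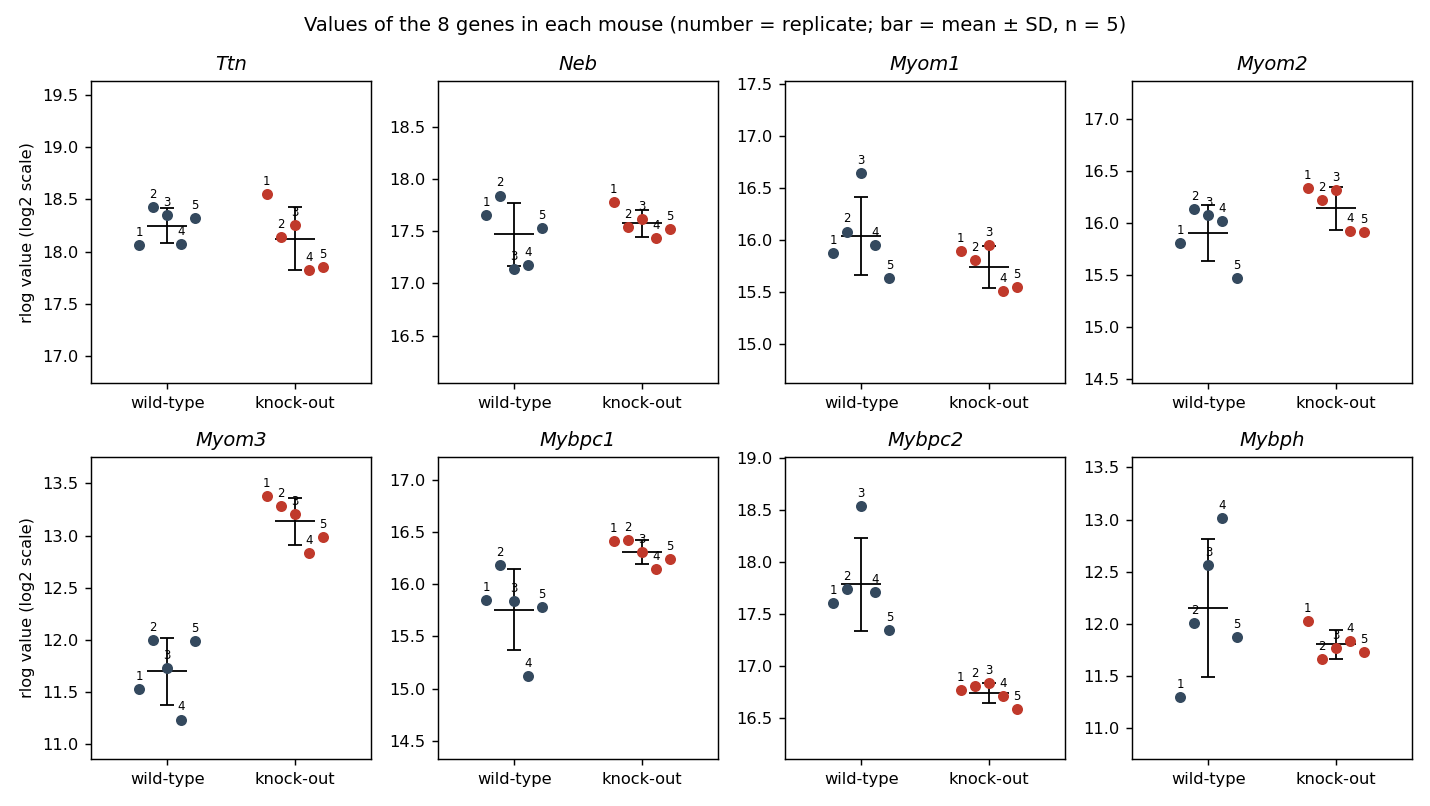
Rlog values (log2 scale, vertical axis) of the 8 genes in each wild-type and desmin knock-out mouse, with every panel spanning the same range of log2 units. Points are single mice numbered by replicate and bars give the mean ± SD (n = 5). The knock-out points lie above all wild-type points for Myom3 and below them for Mybpc2.

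The promoters of the 3 genes that passed are shown because Myom3 and Mybpc1 rose while Mybpc2 fell. Each is the 250 bases before the start that RefSeq gives the gene (GRCm38.p6), on the gene's own strand. Entries were found for 7 of the 9 genes, not for Neb and Myom2. Capitals mark matches, on either strand, to 5 motifs of muscle promoters: the E-box with the letters CANNTG, bound by MyoD and its relatives, the M-CAT element with the letters CATTCC, the TATA box with the letters TATAAA, the MEF2 site and the CArG box. In the printed windows no match overlaps another.
Myom3, chr4:135759465-135759714, forward strand: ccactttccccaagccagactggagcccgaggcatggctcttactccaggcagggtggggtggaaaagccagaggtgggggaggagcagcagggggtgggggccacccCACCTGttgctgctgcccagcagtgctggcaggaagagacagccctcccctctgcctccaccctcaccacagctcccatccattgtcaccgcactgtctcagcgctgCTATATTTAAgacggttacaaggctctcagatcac
Mybpc1, chr10:88605153-88605402, reverse strand: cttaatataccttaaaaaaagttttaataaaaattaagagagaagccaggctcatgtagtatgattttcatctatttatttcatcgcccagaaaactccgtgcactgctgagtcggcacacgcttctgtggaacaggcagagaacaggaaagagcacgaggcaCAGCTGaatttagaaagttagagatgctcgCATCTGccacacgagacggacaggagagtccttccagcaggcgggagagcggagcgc
Mybpc2, chr7:44524670-44524919, reverse strand: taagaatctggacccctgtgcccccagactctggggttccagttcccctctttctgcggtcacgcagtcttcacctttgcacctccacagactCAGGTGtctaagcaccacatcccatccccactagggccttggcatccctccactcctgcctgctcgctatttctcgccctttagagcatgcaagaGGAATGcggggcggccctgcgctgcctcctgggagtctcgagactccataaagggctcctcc

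Myom3 had a MEF2 site starting 35 bases before the start of the gene and 1 E-box. Mybpc1 had 2 E-boxes, and Mybpc2 had 1 E-box and 1 M-CAT element on the opposite strand. Neither the MEF2 site nor the M-CAT element was particular to the called genes. Among the windows not printed, those of Ttn, which did not pass, and Mybpc3, which was not tested, also held a MEF2 site. The windows of Myom1 and Mybph held no MEF2 site, and that of Mybph held an M-CAT element. Of 32851 promoter windows of the same length, 66.2% held an E-box, 12.6% an M-CAT element, 12.4% a TATA box, 2.92% a MEF2 site and 1.47% a CArG box. These matches describe the letters of the windows and are no evidence of binding.

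The giant protein genes did not pass the test. Ttn (ENSMUSG00000051747) lies on the reverse strand of chromosome 2 of GRCm38 from 76703980 to 76982547 and has 117 kb of exon sequence. Its rlog values were 18.55, 18.14, 18.25, 17.82 and 17.85 in knock-out mice 1 to 5 and 18.06, 18.43, 18.35, 18.08 and 18.32 in wild-type mice 1 to 5. The groups overlapped, with knock-out mouse 1 above and knock-out mice 4 and 5 below all wild-type mice. The log2 difference was -0.13, with a 95% interval from -0.50 to 0.25 (limma, adjusted p = 0.681). Ttn was the only one of the 8 genes whose SD was larger in knock-out (0.30) than in wild-type mice (0.17).

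Neb (ENSMUSG00000026950), also on the reverse strand of chromosome 2 (52136647 to 52378474), has 26.6 kb of exon sequence. Its values were 17.78, 17.54, 17.62, 17.43 and 17.52 in the knock-out and 17.66, 17.84, 17.14, 17.18 and 17.53 in the wild-type mice. Wild-type mice 3 and 4, whose values fell with exon length, were the lowest of all 10 mice, and the knock-out mice lay within the wild-type range. The log2 difference was 0.11, with a 95% interval from -0.24 to 0.46 (limma, adjusted p = 0.708). When the trend of each mouse on exon length was removed it was 0.043. The same removal took the log2 difference of Ttn the other way, from -0.13 to -0.24 (limma, adjusted p = 0.459). The part of exon length in either gene was not tested.

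Of the 3 myomesin genes, only Myom3 passed the test. Myom3 (ENSMUSG00000037139) lies on the forward strand of chromosome 4 from 135759715 to 135815564. Its rlog values were 13.38, 13.28, 13.20, 12.83 and 12.99 in knock-out mice 1 to 5 and 11.53, 12.00, 11.73, 11.23 and 11.99 in wild-type mice 1 to 5. Every knock-out mouse lay above every wild-type mouse, and the gap between the lowest knock-out and the highest wild-type value was larger than the SD of either group. The means were 13.14 ± 0.22 (SD, n = 5) and 11.70 ± 0.32 (SD, n = 5). The log2 difference of 1.44 (standard error 0.15) had an adjusted p of 3.37e-05 (limma). Permuting the genotypes over all mice (exact permutation test, two-sided) gave p = 0.00794, the smallest that 5 mice against 5 allow.

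Myom1 (ENSMUSG00000024049, chromosome 17, 71002633 to 71126856, forward strand) ranged from 15.51 to 15.96 with a median of 15.81 in knock-out mice. In wild-type mice it ranged from 15.64 to 16.65 with a median of 15.95, and mouse 3 was the highest. The log2 difference was -0.30, with a 95% interval from -0.67 to 0.082 (limma, adjusted p = 0.299), and it was -0.14 without wild-type mouse 3. The neighbour Myl12a, a myosin regulatory light chain gene of non-muscle type on the opposite strand, was higher by 0.65 (limma, adjusted p = 7.6e-04). It shares 207 exon bases with Myom1, which are 1.98% of the exon bases of Myom1. Whether reads were counted by strand is not given in the sources used here, so reads of the shared bases could belong to either gene.

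Myom2 (ENSMUSG00000031461, chromosome 8, 15057653 to 15133541, forward strand) ranged from 15.91 to 16.33 with a median of 16.23 in knock-out mice and from 15.48 to 16.14 with a median of 16.02 in wild-type mice. Knock-out mice 1, 2 and 3 lay above all wild-type mice, and knock-out mice 4 and 5 within their range. The log2 difference was 0.24, with a 95% interval from -0.090 to 0.57 (limma, adjusted p = 0.337).

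Among the genes of myosin-binding proteins, the fast form of protein C fell and the slow form rose. Mybpc2 (ENSMUSG00000038670) lies on the reverse strand of chromosome 7 from 44501699 to 44524656. Its values were 16.77, 16.81, 16.83, 16.71 and 16.59 in knock-out mice 1 to 5 and 17.61, 17.74, 18.54, 17.71 and 17.35 in wild-type mice 1 to 5. All knock-out mice lay below all wild-type mice, and wild-type mouse 3 was the highest. The means were 16.74 ± 0.10 (SD, n = 5) and 17.79 ± 0.45 (SD, n = 5). The log2 difference of -1.05 (standard error 0.19) had an adjusted p of 0.00258 (limma). Without wild-type mouse 3 it was -0.86 (limma, adjusted p = 1.27e-04), and the exact permutation p over all mice was 0.00794 (two-sided).

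Mybpc1 (ENSMUSG00000020061) lies on the reverse strand of chromosome 10 from 88518279 to 88605152. Its values were 16.41, 16.43, 16.31, 16.15 and 16.24 in the knock-out and 15.85, 16.18, 15.84, 15.12 and 15.78 in the wild-type mice. All knock-out mice but mouse 4 lay above all wild-type mice, and wild-type mouse 4 was the lowest of all. The means were 16.31 ± 0.12 (SD, n = 5) and 15.75 ± 0.39 (SD, n = 5). The log2 difference of 0.56 (standard error 0.17) was only just beyond the threshold (limma, adjusted p = 0.0456). The exact permutation test gave p = 0.0159 (two-sided). Over the 20 alternatives the difference ran from 0.30, with sample weights (limma, adjusted p = 0.0526), to 0.69, with quantile normalization (limma, adjusted p = 0.0117). The call was lost without any one of the 5 knock-out mice or of wild-type mice 1, 4 and 5 (limma, adjusted p up to 0.112), and without wild-type mouse 4 the difference was 0.40 (limma, adjusted p = 0.0572).

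Mybph (ENSMUSG00000042451) lies on the forward strand of chromosome 1 from 134193448 to 134201232. Its values were 12.03, 11.66, 11.76, 11.83 and 11.73 in the knock-out and 11.29, 12.01, 12.57, 13.01 and 11.87 in the wild-type mice. The wild-type mice spread over a wider range than those of any other of the 8 genes, and the 5 knock-out mice lay inside it. Accordingly the SD was 0.66 in wild-type and 0.14 in knock-out mice. The log2 difference was -0.35, with a 95% interval from -0.87 to 0.18 (limma, adjusted p = 0.386). It was -0.13 without wild-type mouse 4 and -0.56 without wild-type mouse 1 (limma, adjusted p = 0.0818), and with sample weights it was -0.0062. Adora1, an adenosine receptor gene on the opposite strand, covers 49.9% of the exon bases of Mybph. Its values lay between 2.92 and 3.68, with a mean under the expression limit, and it was also highest in wild-type mouse 4.

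Mybpc3 (ENSMUSG00000002100, chromosome 2, 91118144 to 91136516, forward strand), the cardiac form, was listed at 0 in every mouse, as were 26079 genes of the table, so neither a difference nor its ratio to Mybpc1 was computed. Among the 10 cardiac markers, Nkx2-5 was also listed at 0 in all mice and Nppa, Myl7, Gata4 and Tbx5 had values below 0. Tnni3, the cardiac troponin I, was low in both groups and higher in the knock-out mice. The knock-out mean of 3.71 ± 0.19 (SD, n = 5) stood against a wild-type mean of 3.19 ± 0.17 (SD, n = 5). The log2 difference was 0.52 (limma, adjusted p = 0.0158). Tnni3 was tested because its mean over all mice, 3.45, reached the expression limit of log2(10), whereas its wild-type mean lay under that limit. This difference therefore rests on values near the limit.

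**Figure D2:**
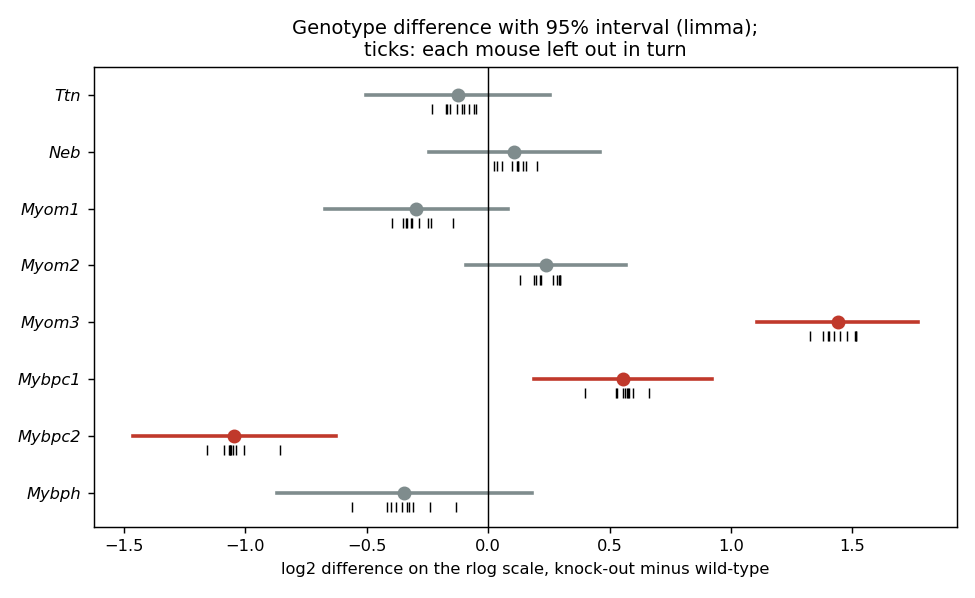
Log2 difference on the rlog scale (knock-out minus wild-type, horizontal axis) of the 8 genes with its 95% interval from limma, in red for an adjusted p under 0.05. Black ticks give the difference with each mouse left out in turn, which ran from 1.32 to 1.52 for Myom3, from 0.40 to 0.66 for Mybpc1 and from -1.16 to -0.86 for Mybpc2.

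The levels of different genes were compared per kb of exon, as the rlog value minus the log2 of exon length in kb. Mybpc2 was the highest in wild-type muscle at 15.94, above 99.8% of tested genes, followed by Mybpc1 (13.58), Myom2 (12.76), Neb (12.74), Myom1 (12.65), Ttn (11.38), Mybph (10.93) and Myom3 (9.10). Mybpc2 stood clear of Mybpc1 in all 5 wild-type mice, Myom1 stood clear of Ttn and Mybph of Myom3, whereas the ranges of all other neighbours overlapped. In knock-out muscle the order of the means was the same, but the distances changed. Mybpc2 exceeded Mybpc1 by 0.76, compared with 2.36 in wild-type muscle, and Myom3 lay 0.042 below Mybph, with overlapping ranges, compared with 1.83 in wild-type muscle. With the length of the longest transcript in place of the union of exons, Myom3 came above Mybph in knock-out muscle and Myom1 above Neb in both genotypes.

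**Figure D3:**
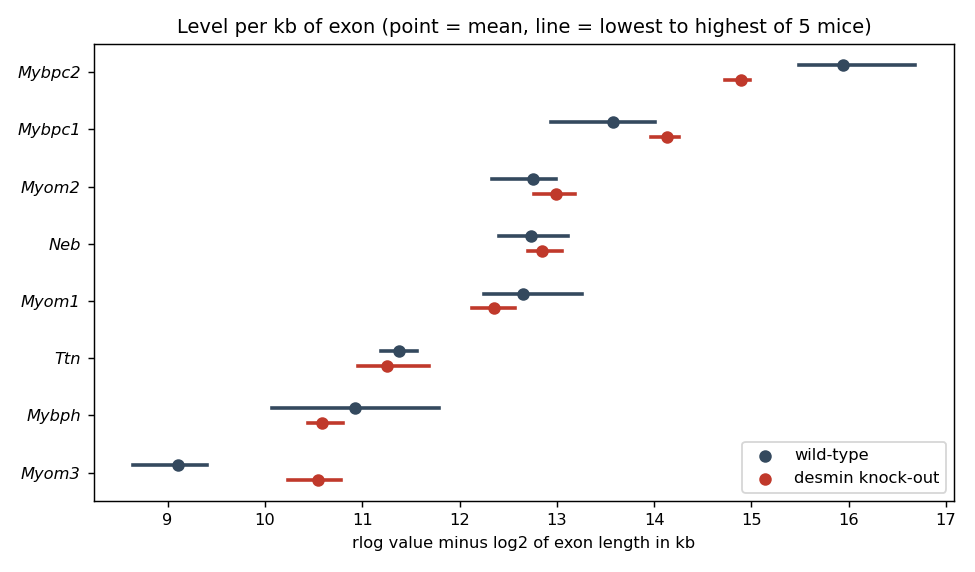
Level per kb of exon (rlog value minus log2 of exon length in kb, horizontal axis) of the 8 genes in wild-type and desmin knock-out muscle, with points for means and lines from the lowest to the highest of 5 mice. The distance between Mybpc2 and Mybpc1 is smaller, and Myom3 is closer to Mybph, in knock-out than in wild-type muscle.

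Ratios of 2 genes within a mouse do not depend on the scaling between libraries, and 5 of them were computed as differences of rlog values, not per length. The log2 ratio of fast to slow myosin-binding protein C (Mybpc2 to Mybpc1) was 0.36, 0.38, 0.52, 0.56 and 0.34 in knock-out mice 1 to 5 and 1.76, 1.56, 2.70, 2.59 and 1.56 in wild-type mice 1 to 5. The knock-out mice lay close together and far below every wild-type mouse, among which mice 3 and 4 had the highest ratios. The difference was -1.60 (standard error 0.26, exact permutation test, two-sided p = 0.00794, and 0.0132 adjusted over the 5 ratios). Without wild-type mice 3 and 4, an alternative chosen after seeing the data, it was -1.20.

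The ratio of Myom3 to its family members rose in the same way. The log2 ratio of Myom3 to Myom2 lay between -3.11 and -2.92 in knock-out and between -4.78 and -3.49 in wild-type mice, with a difference of 1.20 (standard error 0.21). The ratio of Myom3 to Myom1 lay between -2.75 and -2.52 in knock-out and between -4.91 and -3.65 in wild-type mice, with a difference of 1.74 (standard error 0.23). Neither ratio overlapped between the genotypes (exact permutation test, two-sided p = 0.00794 for each, and 0.0132 adjusted over the 5 ratios). Wild-type mouse 5 came nearest to the knock-out mice in both.

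The other ratios did not pass. Mybph to Mybpc2 differed by 0.70 (standard error 0.28, exact permutation test, two-sided p = 0.0556, and 0.0694 adjusted over the 5 ratios), and it was 0.93 without wild-type mouse 4 (exact permutation test, p = 0.0159). Neb to Ttn differed by 0.23 (standard error 0.16, exact permutation test, two-sided p = 0.183). Both lowest values of this ratio, -1.21 and -0.90, were those of wild-type mice 3 and 4.

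**Figure D4:**
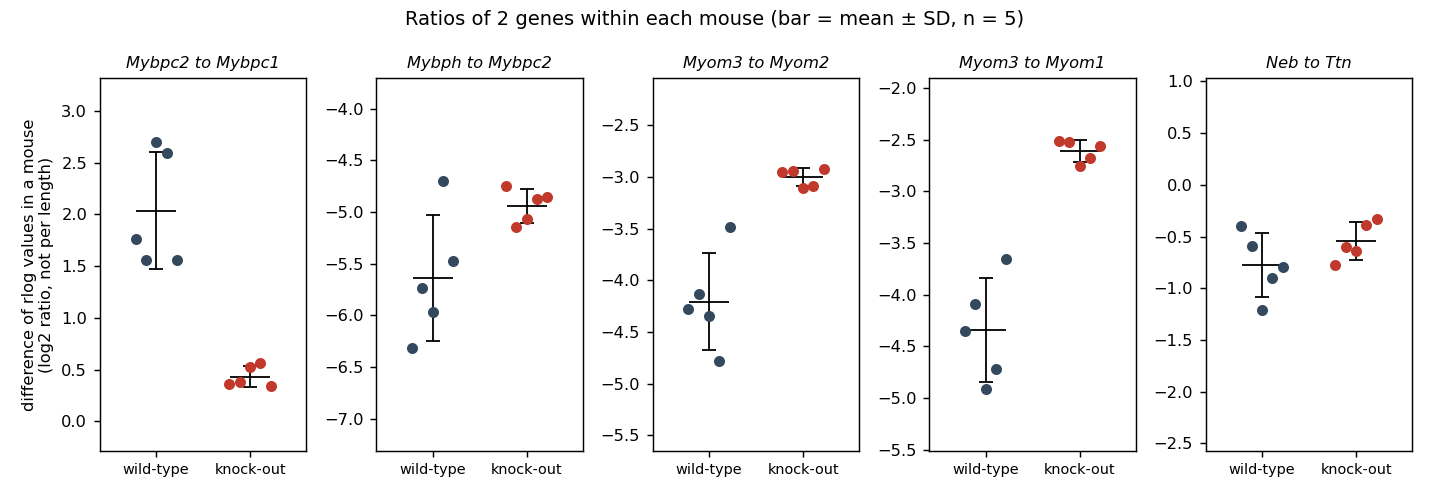
Log2 ratios of 2 genes within each mouse (vertical axis, difference of rlog values, each panel spanning the same range) in wild-type and desmin knock-out muscle, with points for mice and bars for the mean ± SD (n = 5). Mybpc2 to Mybpc1 is lower, and Myom3 to Myom2 and to Myom1 higher in the knock-out group, with no overlap of the points.

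Within the knock-out group most of the 8 genes had their lowest values in the same mice. Knock-out mice 4 and 5 held the lowest values of the group for 7 of the 8 genes, all but Mybph, compared with 14.5% of all tested genes, and knock-out mouse 1 had the highest value for 5 of the 8. In the wild-type group mouse 2 had the highest value for 5 of the 8 genes. The median deviation of the 8 genes from their genotype means ran, among the knock-out mice, from -0.19 in mouse 4 to 0.20 in mouse 1. The slope of the values on exon length was 0.050 in knock-out mouse 1, 0.00038 in mouse 4 and 0.0017 in mouse 5, but lowest in mouse 2 (-0.0038). In wild-type mouse 2 it was 0.049, and in wild-type mouse 5, which had the highest value for none of the genes, 0.042. The counts were made after seeing the data, and neither the pattern nor the part of exon length in it was tested.

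Genes with values most like those of the 3 called genes were sought by the SD, over the 10 mice, of the difference between the rlog values of both genes. This SD spans both genotypes, so it favours genes with a similar genotype difference and does not show movement from mouse to mouse within a genotype. In the order named below, the log2 differences were 1.38, 1.53 and 1.66 for Myom3, -1.05, -1.25 and -0.83 for Mybpc2, and 0.46, 0.55 and 0.62 for Mybpc1. For Myom3 these were 5930412G12Rik (SD 0.14), Arpp21 (0.18), which encodes a cAMP-regulated phosphoprotein, and Armh4 (0.20), compared with a median SD of 0.83 over all tested genes. For Mybpc2 they were Mical2 (0.15), an actin-oxidizing enzyme gene, 4430402I18Rik (0.16) and Rph3al (0.17), compared with a median of 0.66. For Mybpc1 they were Gm47071 (0.11), Khdrbs3 (0.12), an RNA-binding protein gene, and Mns1 (0.13), compared with a median of 0.46. Of the other 7 genes described here, the nearest was Mybpc1 for Myom3 (0.49), Myom1 for Mybpc2 (0.41) and Neb for Mybpc1 (0.31).

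The partners of titin, nebulin and the M-band moved in both directions. Of 26 listed genes 25 were tested, with 6 called higher and 5 called lower in the knock-out mice (limma, adjusted p under 0.05) and a median log2 difference of 0.17. Ankrd2, a stretch-responsive ankyrin repeat protein that binds titin, rose from 12.74 ± 0.36 (SD, n = 5) to 13.70 ± 0.13 (SD, n = 5), a log2 difference of 0.96 (limma, adjusted p = 8.1e-04). Fhl2, a LIM protein that binds titin, was higher by 1.13 (limma, adjusted p = 9.03e-04). Speg, a kinase related to obscurin, had a log2 difference of -0.58 (limma, adjusted p = 8.65e-04), and Capn3, the protease calpain 3 that is anchored on titin, one of -0.57 (limma, adjusted p = 0.00278). Each of these 4 genes separated the genotypes completely. Whether any partner lies near the targeted Des allele was not examined, and a local effect of that allele was not tested.

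Genes of slow and fast fibers stood beside the change of Mybpc1, Mybpc2 and Myom3. Of 12 slow fiber genes, 5 were higher and 1 lower, with a median log2 difference of 0.40. The sarcoplasmic reticulum genes Sln, for sarcolipin, and Casq2, for a calsequestrin, were higher by 3.17 (limma, adjusted p = 1.05e-09) and 1.01 (limma, adjusted p = 0.00279). The slow troponin genes Tnnt1 and Tnni1 were higher by 1.70 (limma, adjusted p = 8.53e-05) and 0.91 (limma, adjusted p = 0.0103). The 1 lower gene was Myl3, for the ventricular and slow skeletal myosin light chain, with a log2 difference of -0.998 (limma, adjusted p = 0.0143) and every knock-out mouse below every wild-type mouse. Myh7, the slow myosin heavy chain gene, like Myl3 chosen after the values were seen, had a log2 difference of -0.05 (limma, adjusted p = 0.933). Of 15 fast fiber genes, 1 was higher and 3 lower, with a median of -0.40. Myh4, the myosin heavy chain of the fastest fibers, fell from 20.58 ± 0.27 (SD, n = 5) to 19.87 ± 0.16 (SD, n = 5), and Myh2, that of fast oxidative fibers, rose from 16.46 ± 0.39 (SD, n = 5) to 17.23 ± 0.28 (SD, n = 5). Actn3, the actinin of fast fibers, had a log2 difference of -0.97 (limma, adjusted p = 0.0196) and Mylk2, the skeletal myosin light chain kinase, one of -0.45 (limma, adjusted p = 0.0255).

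Of 12 genes of developing and regenerating fibers, 9 were higher and 2 lower, with a median of 1.32. The cell cycle inhibitor gene Cdkn1a was higher by 1.48 (limma, adjusted p = 1.46e-06) and Myh3, the embryonic myosin heavy chain, by 2.25 (limma, adjusted p = 5.89e-06). The fusion genes Mymk and Mymx were higher by 1.93 (limma, adjusted p = 2.11e-05) and 1.35 (limma, adjusted p = 2.94e-05). The 2 lower genes, Actc1 and Myod1, had log2 differences of -0.83 (limma, adjusted p = 0.0352) and -0.47 (limma, adjusted p = 0.0219). The genotypes overlapped for both.

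Markers of other cells moved as well. Of 8 fibroblast markers 4 were higher and 1 lower, with a summed level (log2) between 13.88 and 14.49 in knock-out and between 13.48 and 14.38 in wild-type mice. None of 7 endothelial markers was higher and 5 were lower, with a summed level between 11.98 and 12.38 in knock-out and between 12.49 and 12.78 in wild-type mice. Of 5 erythroid markers 2 were lower, with sums between 11.49 and 12.09 and between 12.00 and 13.37. No marker of macrophages (10 tested), Schwann cells (7) or adipocytes (6) passed. No marker of these 6 cell types was listed at 0. The part of cell composition and of fiber type in the differences of Myom3, Mybpc1 and Mybpc2 was not tested.

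**Figure D5:**
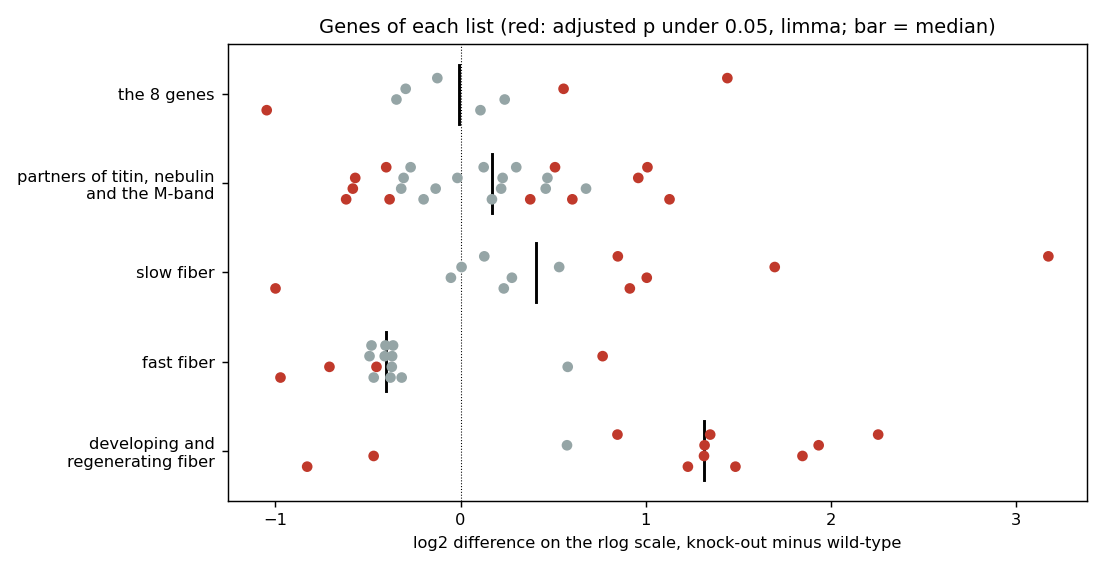
Log2 difference on the rlog scale (knock-out minus wild-type, horizontal axis) of each tested gene in the 8 genes described and in 4 lists, in red for an adjusted p under 0.05 (limma), with a bar at the median of each list. Vertical position within a list only separates the points. The medians are -0.0089 for the 8 genes, 0.17 for the partners, 0.40 for slow, -0.40 for fast and 1.32 for developing fiber genes.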

How the data were processed

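RNA-seq of the gastrocnemius (with the plantaris, by the study's text) was analysed in 5 mice of each genotype (desmin knock-out, wild-type). The submitters' processing notes name cutadapt 2.5, STAR 2.5.4a, Subread 1.6.1 with featureCounts, DESeq2 and GRCm38. The authors deposited rlog values on a log2 scale, 1 column per mouse, all 10 of which were used. The settings of the transformation are not given in the sources used here, and depth and counting error are unknown.

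The expression limit was a mean rlog value of log2(10) over all mice. The 14289 genes that reached it were fitted by genotype with lmFit and eBayes (trended prior) of limma 3.58.1 under R 4.3.3, with two-sided p-values adjusted by Benjamini-Hochberg. Ratios and single genes were compared by exact permutation tests. Symbols, positions and lengths came from GENCODE M21 (GRCm38), with symbols for 54165 of 54232 genes.

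The genes, lists and alternatives were chosen with earlier results of these data known. Named were Des, all 9 genes, the called genes of each muscle list, at most 4 by adjusted p, and the 3 genes most like each called gene. Exceptions are Myh7, Myl3, Actc1, Myod1 and the overlapping genes Myl12a and Adora1, named after their values were seen. Alternatives were other expression limits, centring, quantile normalization, other priors and weights, removal of a trend on exon length, a stricter threshold and leaving out mice. Replicate numbers are shared by the genotypes, and the sources used here do not say whether they pair the mice, so the main fit used no pairing.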

Additional observations from a re-analysis of the deposited data

How the results depend on the processing

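Myom3 and Mybpc2 kept their direction and call in all 20 alternatives, with log2 differences from 1.22 to 1.52 and from -1.16 to -0.78. The number of genes called higher was 1 in place of 2, because Mybpc1 lost its call, with no expression limit, median centring, sample weights and an adjusted p under 0.01, and it was 1 or 2 with each mouse left out. Sample weights gave 2 in place of 1 gene called lower, Myom1 being added (log2 difference -0.32, limma, adjusted p = 0.0405), and 4220 in place of 1956 calls over all genes. An adjusted p under 0.01 left 994 calls, and leaving out both wild-type mice 3 and 4 gave 3400. Mice left out in turn gave 1 or 2 genes without overlap and above wild-type. The direction of Ttn turned with quantile normalization (0.19), that of Neb with sample weights (-0.16) and without wild-type mice 3 and 4 (-0.10), and that of Mybph without these 2 mice (0.080). The cause was not tested.

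With each mouse left out, the ratio differences ran from -1.72 to -1.44 for Mybpc2 to Mybpc1, from 0.53 to 0.93 for Mybph to Mybpc2, from 1.06 to 1.38 for Myom3 to Myom2, from 1.59 to 1.91 for Myom3 to Myom1 and from 0.12 to 0.33 for Neb to Ttn. Without both wild-type mice 3 and 4, Mybph to Mybpc2 differed by 0.90 (exact permutation test, p = 0.0357). With the replicate number as a block, the differences of -1.60, 1.20 and 1.74 had p = 0.0625 (exact sign-flip test), the smallest that 5 pairs allow, and the limma fit with this replicate block changed no call of the 8 genes and made 1579 calls over all genes. Same-numbered mice did not deviate together (r between -0.219 and 0.0673), which does not exclude a pairing. With the longest transcript as length, the wild-type levels per kb of Myom1 and Myom2 were 13.54 and 13.56. Depth is unknown from rlog values, so no floor on low values could be set.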
